A study of Mus musculus with 3 samples.

Results

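The fibrillar collagen genes described here were Col1a1, Col1a2, Col2a1, Col3a1, Col5a1, Col5a2, Col5a3 and Col11a1, 8 of the 22380 protein-coding genes in the GENCODE M1 annotation of mm9. Every region of the odd-pool and even-pool lists of PAM ChIRP-seq that shared at least 1 bp with the span of one of these genes was taken, which gave 16 of 2112 odd regions (0.758%) and 6 of 345 even regions (1.74%), or 22 regions in all. The family was chosen by the number and the scores of their regions in these same lists, so the counts, scores and exon positions below are a description and were not tested. PAM is a lncRNA made from a super-enhancer on chromosome 4, and none of the 8 genes lies on that chromosome. ChIRP-seq uses biotinylated probes antisense to an RNA to pull down the chromatin crosslinked to it, and the DNA that comes with it is sequenced. The cells were ASCs, satellite cells (the stem cells of skeletal muscle) sorted by FACS from hindlimb muscle of Tg:Pax7-nGFP mice and then cultured. They carried no further treatment, and neither the age of the mice nor the number pooled was given for these libraries in the sources used here. Both groups had cells of the same kind and differed in the probes: 10000000 cells were crosslinked with 1% glutaraldehyde for 10 min, and 100 pmol of the odd or of the even probes was hybridized at 37 °C for 4 h. Each pool had 1 library, the input was not analysed here, and no value below has a replicate error.

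Fibrillar collagens are secreted proteins of the extracellular matrix in which 3 chains wind into a long triple helix. Each chain carries an uninterrupted run of Gly-X-Y triplets, in which glycine is the only residue small enough for the centre of the helix, between an N-terminal propeptide and a C-terminal propeptide. The C-propeptide brings the chains together in the endoplasmic reticulum. After secretion, propeptide sequence is cut off and the molecules assemble into crosslinked fibrils. Type I collagen (Col1a1 and Col1a2) and type III collagen (Col3a1) form most of the connective tissue around muscle fibers, type V chains (Col5a1, Col5a2 and Col5a3) lie inside type I fibrils and limit their diameter, and type II (Col2a1) and type XI (Col11a1) are best known from cartilage.

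The regions fell on 5 of the 8 genes and had their midpoints on exons throughout, as did most regions of both lists in protein-coding genes. Col3a1 had 8 odd and 4 even regions, Col1a2 had 3 and 1, and Col1a1 had 2 and 1. Col5a1 had 2 odd regions and Col5a2 had 1, with no even region in either gene. Col2a1, Col5a3 and Col11a1 had no region of either pool. The highest scores were clustered at the 3′ end of Col3a1, on the exons that code for the end of the helix, the C-propeptide and the start of the 3′ UTR.

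The exon on which the helix ends held an odd region in 3 genes, and these regions are shown side by side because the shift from glycine triplets to propeptide sequence can be read in them. Sequences are from mm9, on the plus strand, which is the coding strand of these genes, with exon bases in capitals. The region in exon 48 of Col3a1 spans chr1:45402684-45402937, that in exon 48 of Col1a1 chr11:94811579-94811832, and that in exon 62 of Col5a1 chr2:27880128-27880381.
Col3a1 exon 48: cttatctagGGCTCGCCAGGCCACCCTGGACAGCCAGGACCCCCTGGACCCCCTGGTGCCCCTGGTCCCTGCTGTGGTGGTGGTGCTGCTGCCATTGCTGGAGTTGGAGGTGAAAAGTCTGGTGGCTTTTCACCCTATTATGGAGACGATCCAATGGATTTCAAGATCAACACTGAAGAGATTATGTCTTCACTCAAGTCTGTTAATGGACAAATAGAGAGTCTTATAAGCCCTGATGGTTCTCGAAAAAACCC
Col1a1 exon 48: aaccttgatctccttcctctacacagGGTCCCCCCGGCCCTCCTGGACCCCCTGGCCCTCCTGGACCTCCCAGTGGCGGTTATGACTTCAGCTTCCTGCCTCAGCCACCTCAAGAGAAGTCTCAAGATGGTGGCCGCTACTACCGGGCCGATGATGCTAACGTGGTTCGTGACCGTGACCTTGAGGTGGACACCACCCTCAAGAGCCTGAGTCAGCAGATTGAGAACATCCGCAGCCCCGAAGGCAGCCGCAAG
Col5a1 exon 62: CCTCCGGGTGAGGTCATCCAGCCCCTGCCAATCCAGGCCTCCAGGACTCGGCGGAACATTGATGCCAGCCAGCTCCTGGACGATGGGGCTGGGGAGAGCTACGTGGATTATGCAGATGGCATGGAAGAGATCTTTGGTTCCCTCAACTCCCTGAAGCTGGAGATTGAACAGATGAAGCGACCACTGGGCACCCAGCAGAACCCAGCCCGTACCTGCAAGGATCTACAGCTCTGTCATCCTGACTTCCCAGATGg
In Col3a1, 63 of the exon bases in the region belonged to the helix and 182 followed it. The split was 45 and 183 bases in Col1a1 and 15 and 238 bases in Col5a1. These 3 regions scored 53, 7 and 5 in the odd list, so the same junction carried one of the highest scores of the list in one gene and scores near the list median in the other genes.

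The next-to-last exon of Col1a2, exon 51, lies within the C-propeptide and is shown as an example of propeptide coding sequence. Its odd region spans chr6:4489432-4489685.
Col1a2 exon 51: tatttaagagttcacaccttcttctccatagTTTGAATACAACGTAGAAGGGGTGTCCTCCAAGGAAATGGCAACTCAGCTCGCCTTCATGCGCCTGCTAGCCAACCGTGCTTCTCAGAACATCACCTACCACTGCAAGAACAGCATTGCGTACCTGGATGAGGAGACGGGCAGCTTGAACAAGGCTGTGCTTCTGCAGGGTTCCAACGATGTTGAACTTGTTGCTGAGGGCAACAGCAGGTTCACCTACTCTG
All 31-mers of every collagen region occurred once in mm9, so the regions in related exons did not share a 31-mer. In the whole lists, the median 31-mer occurred more than once for 16.6% of the odd regions (351) and 19.4% of the even regions (67). Among regions in protein-coding genes, this held for 186 of 1771 odd regions and 31 of 242 even regions.

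Only Col3a1 had regions on exons that lie inside the helix. The coding sequences of exon 20 and exon 39 are shown 5′ to 3′ with the glycine codons of the repeat in capitals, to set them against the propeptide exon above. The region around exon 20 spans chr1:45388903-45389156 and that around exon 39 spans chr1:45397655-45397908.
Col3a1 exon 20: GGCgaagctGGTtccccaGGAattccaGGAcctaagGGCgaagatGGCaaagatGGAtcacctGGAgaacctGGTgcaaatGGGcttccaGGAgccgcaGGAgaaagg
Col3a1 exon 39: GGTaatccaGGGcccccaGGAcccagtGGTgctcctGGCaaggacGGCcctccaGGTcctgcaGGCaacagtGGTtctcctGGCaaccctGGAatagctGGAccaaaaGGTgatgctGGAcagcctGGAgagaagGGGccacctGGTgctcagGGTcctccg
Exon 20 holds 12 glycine codons among 36 codons and exon 39 holds 18 among 54, with the GGN codon in the first place of each triplet. By contrast, the part of exon 51 of Col1a2 printed above holds 4 glycine codons among 74 complete codons.

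The background of the lists sets the scale for these counts. At least 1 odd region was found in 1445 of the 22380 protein-coding genes (6.46%), at least 1 even region in 223 (0.996%), and a region of each pool in 156 (0.697%). Of the 8 collagen genes, 5 had an odd region, 3 an even region and 3 both. These shares were not compared by a test, since the family was picked for its regions. Regions were 254 bp wide in the odd list, where the median score was 6 and the highest 81, and 248 bp wide in the even list, where the median was 5 and the highest 68. The lowest score was 4 in each. What the score measures was not given in the sources used here, and both lists are not known to share a scale, so scores were compared only within a list. Since the lists give no read counts, the depth behind a score is unknown.

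**Figure D1:**
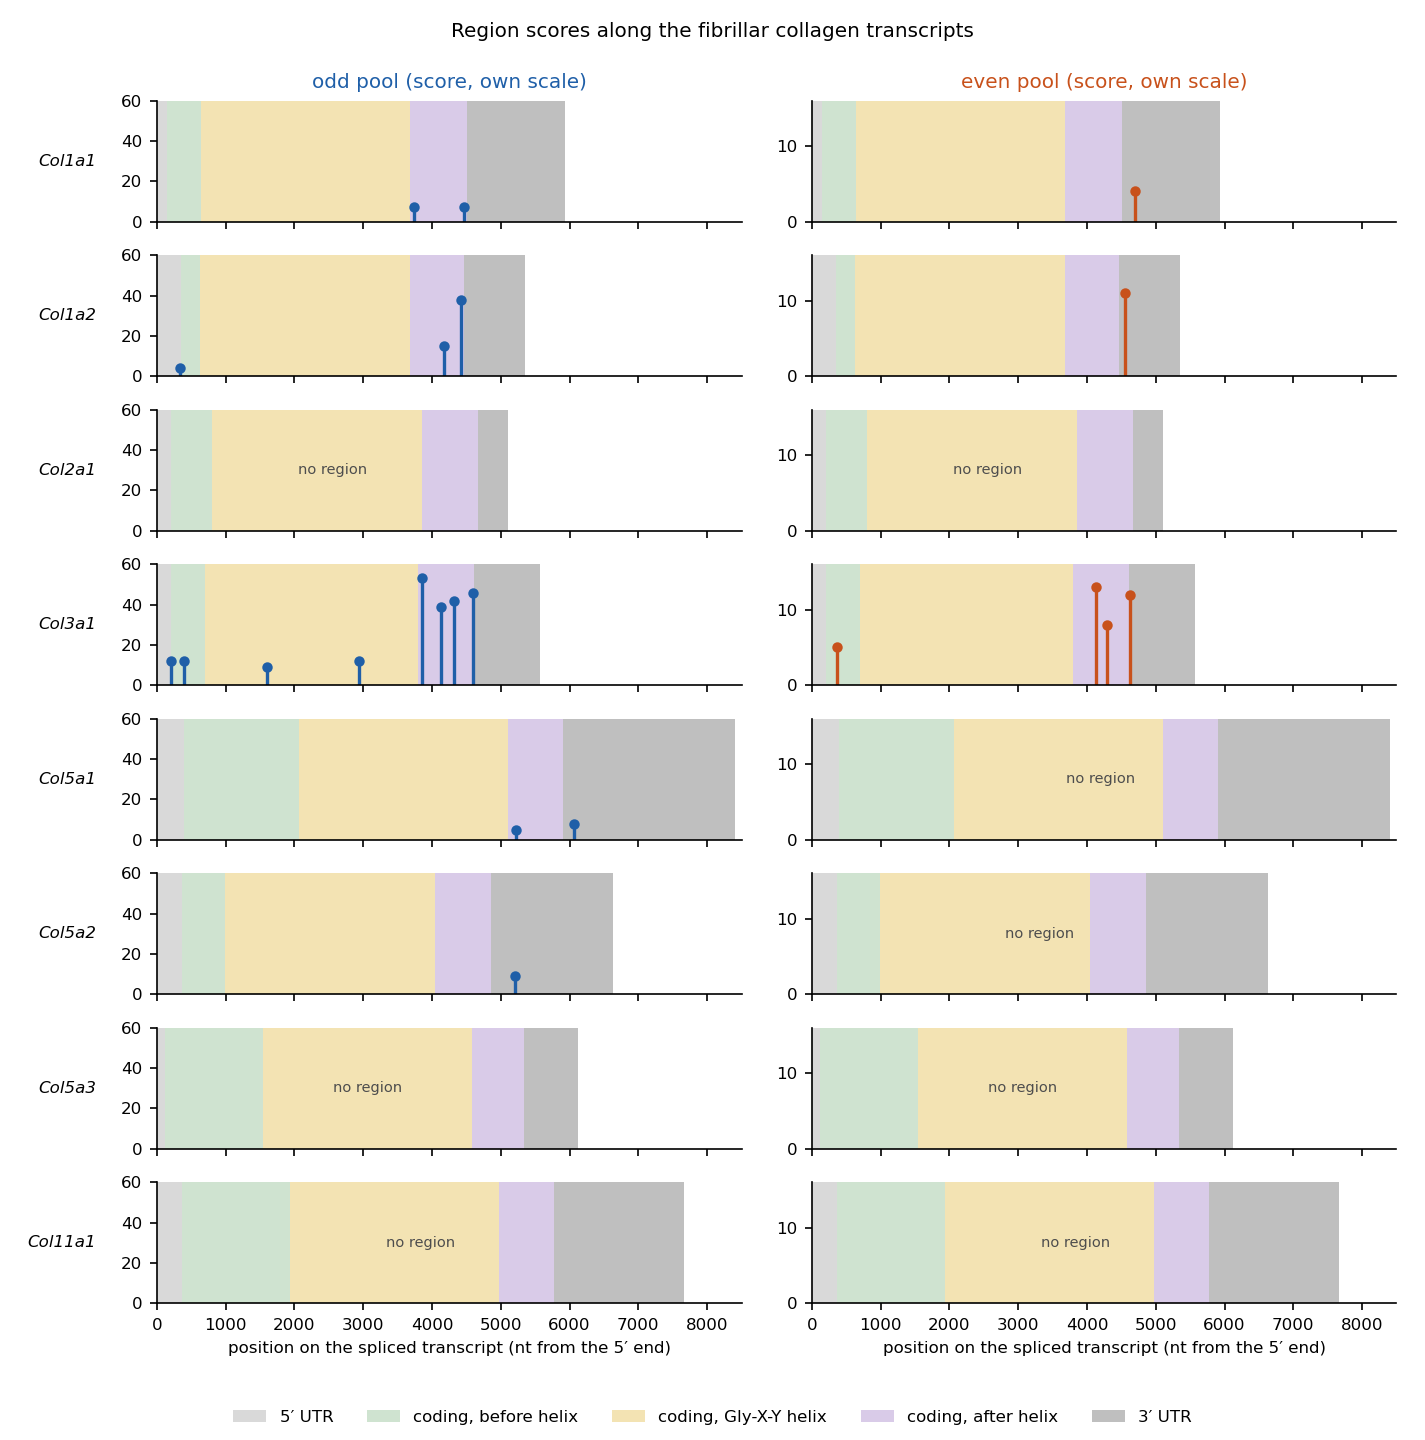
Each point is a region of the odd pool (left) or the even pool (right), placed at its midpoint on the spliced reference transcript (nt from the 5′ end) and drawn as high as its score, with a separate score axis for each pool. Shading marks the UTRs, the Gly-X-Y helix and the coding sequence before and after it. The 4 highest points of Col3a1, from 39 to 53 in the odd pool, lie at the end of the coding sequence, and Col2a1, Col5a3 and Col11a1 have no point.

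Col3a1 (ENSMUSG00000026043.11), which codes for the only chain of type III collagen, spans 45368383 to 45406551 on the plus strand of chromosome 1 and has 51 exons and a spliced length of 5564 nt. Its 8 odd regions, from 5′ to 3′, scored 12, 12, 9, 12, 53, 39, 42 and 46. The first 4 lay on exons 1, 2, 20 and 39, and the last 4 on exons 48, 49, 50 and 51. The scores thus formed a low set from 9 to 12 over the first 39 exons and a high set from 39 to 53 over the last 4, with no overlap. The first region, chr1:45368456-45368709, had its midpoint 200 bp from the transcription start and covered 137 bases of 5′ UTR and 85 coding bases. The second, chr1:45378317-45378570, covered the whole of exon 2 (200 bp), which codes for part of the N-propeptide. The last, chr1:45405461-45405714, covered 132 coding bases and 122 bases of 3′ UTR. In the odd list, 76.5% of regions scored below the exon 20 region, 86.9% below the regions of exons 1, 2 and 39, and between 98.9% and 99.4% below the regions of the last 4 exons.

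The even pool had 4 regions in Col3a1, on exons 2, 49, 50 and 51, with scores of 5, 13, 8 and 12. The region of exon 2 had the lowest of these scores, and in the odd list too it scored below the regions of exons 49, 50 and 51. In the even list, 45.8% of regions scored below it, against 90.1% for exon 49, 78.8% for exon 50 and 89.6% for exon 51. Each of the 4 even regions overlapped an odd region, by 225 bp in exon 2, 248 bp in exon 49, 225 bp in exon 50 and 227 bp in exon 51. The midpoints of both pools lay 26, 2, 26 and 24 bp apart in these exons. The highest odd region of the gene, in exon 48, had no even partner, and the nearest even region began 1006 bp away.

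**Figure D2:**
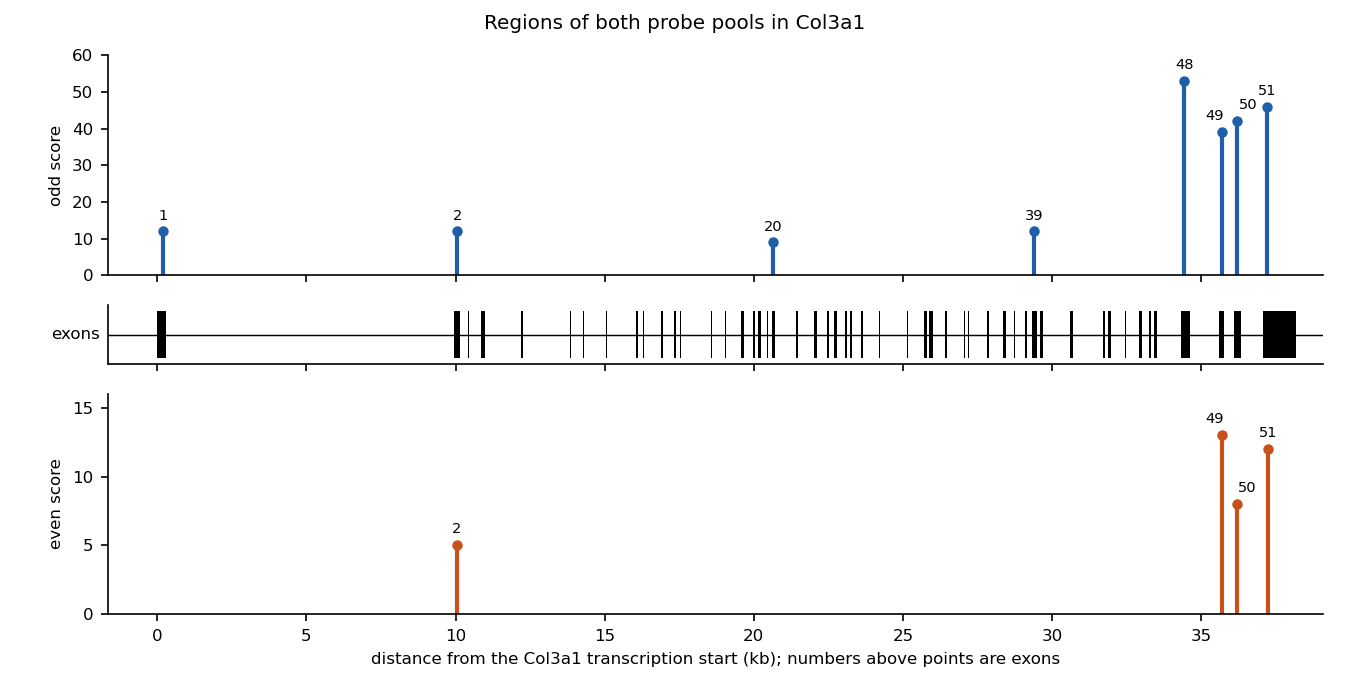
Scores of the odd regions (top) and even regions (bottom) of Col3a1 against the distance from its transcription start in kb, with the 51 exons drawn to scale between them and the exon number above each point. The points sit on exons, and those of exons 2, 49, 50 and 51 are present in both pools.

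Only Fn1 (26) and the predicted gene Gm20388 (11) had more odd regions than Col3a1 (8) among all protein-coding genes, and Fn1 alone had more even regions (10 against 4). Per kb of spliced transcript, Col3a1 had 1.44 odd regions, Col1a2 0.561, Col1a1 0.337, Col5a1 0.238 and Col5a2 0.151. Col5a2, which lies 24614 bp from Col3a1 and is transcribed toward it from the minus strand, had the lowest density of the 5 genes with an odd region. The last odd region of Col3a1 ended 25451 bp from the span of Col5a2, and no region of either pool lay between both genes.

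Col1a2 (ENSMUSG00000029661.9), the alpha-2 chain of type I collagen, spans 4454814 to 4491543 on the plus strand of chromosome 6 and has 52 exons. Its 3 odd regions scored 4, 15 and 38, on exons 1, 51 and 52. As in Col3a1, the region of exon 1 scored below those of the last exons. The region of exon 1, chr6:4455705-4455958, had the minimum score of the list, with a midpoint 339 bp from the transcription start. Of its bases, 135 were 5′ UTR and 70 were coding. The region of exon 51 printed above lay above 91.8% of the odd list. That of exon 52, chr6:4490490-4490743, ranked 24 in the odd list and covered 147 coding bases and 81 bases of 3′ UTR. The even pool had 1 region, chr6:4490628-4490875, with a score of 11, above 88.1% of the even list. It lay on the same exon and overlapped the odd region by 116 bp. Its midpoint was in the 3′ UTR, 135 bp downstream of the odd midpoint, which was in coding sequence. The nearest even region lay 942 bp from the region of exon 51.

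Col1a1 (ENSMUSG00000001506.9), the alpha-1 chain of type I collagen and the partner of Col1a2 in one protein, spans 94797538 to 94814356 on the plus strand of chromosome 11 and has 51 exons. Both of its odd regions scored 7, above 60.9% of the odd list, and lay on exon 48 and exon 51. The region of exon 51, chr11:94812762-94813015, covered 147 coding bases and 82 bases of 3′ UTR, nearly the same stretch of the transcript as the region in the last exon of Col1a2. Its score was 7 against 38 in Col1a2. The even region, chr11:94812997-94813244, had the minimum score of 4, lay wholly in the 3′ UTR and overlapped the odd region by 19 bp. This was the smallest overlap of the 6 shared loci, with midpoints 232 bp apart. The region of exon 48 also overlapped the span of another gene, Gm17329, and the lists do not give a strand.

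The type V genes Col5a1 and Col5a2 had odd scores from 5 to 9 and no even region. In Col5a1 (ENSMUSG00000026837.9), from 27741945 to 27895034 on the plus strand of chromosome 2 with 66 exons, the region of exon 62 scored 5 and that of exon 66, chr2:27892564-27892817, scored 8. The latter lay wholly in the 3′ UTR, and 70.2% of the odd list scored below it, against 29.0% for exon 62. In Col5a2 (ENSMUSG00000026042.9), from 45431166 to 45560127 on the minus strand of chromosome 1 with 54 exons, the single region, chr1:45432452-45432705, scored 9, above 76.5% of the odd list, and lay wholly in the 3′ UTR of exon 54. The nearest even region was 1863014 bp from the closer Col5a1 region and 26716 bp from the Col5a2 region, in the latter case within Col3a1.

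The remaining genes held no region. Col2a1 (ENSMUSG00000022483.9), the type II chain of cartilage, spans 97806033 to 97835155 on chromosome 15. Col5a3 (ENSMUSG00000004098.7), the third chain of type V collagen, spans 20574494 to 20619511 on chromosome 9. Col11a1 (ENSMUSG00000027966.10), a type XI chain, spans 113733458 to 113923636 on chromosome 3. The nearest odd region outside these spans was 534463 bp from Col2a1, 80699 bp from Col5a3 and 1889620 bp from Col11a1. These 3 genes are built like the others, with 54, 67 and 67 exons and spliced lengths of 5104, 6119 and 7667 nt. An absent region says only that none was called at this depth.

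Within the odd list, the scores of the collagen regions ranged from the minimum score of 4 to 53, with a median of 12, against a median of 6 over the 1771 odd regions in protein-coding genes. The median of the 6 even regions was 9.5, against 5 over the 242 even regions in protein-coding genes. These medians rested largely on Col3a1, which held 8 of the 16 odd and 4 of the 6 even regions. Without Col3a1, the odd median was 7.5. The Col3a1 regions of exons 48, 51, 50 and 49 ranked 12, 18, 20 and 23 in the odd list and the last region of Col1a2 ranked 24. In the even list, no collagen region ranked above 31, the rank of exon 49 of Col3a1.

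**Figure D3:**
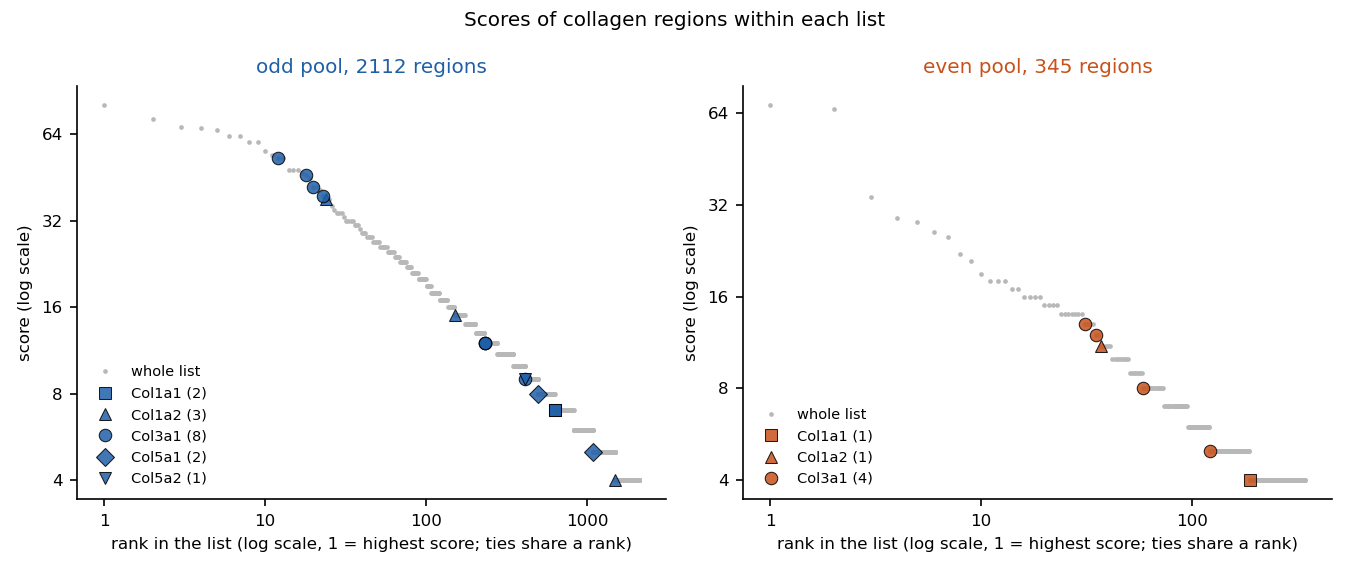
Score against rank (both on log scales, rank 1 the highest score, ties sharing a rank) for all regions of the odd list (left) and the even list (right), with the collagen regions marked by gene. In the odd list, 4 Col3a1 regions and 1 Col1a2 region stand at ranks 12 to 24, and the Col1a1, Col5a1 and Col5a2 regions score 9 or less.

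Both pools had regions at 6 common loci in these genes, of 147 loci shared by the lists. All 6 even regions (95% Wilson interval from 61.0% to 100%) and 6 of the 16 odd regions (37.5%, from 18.5% to 61.4%) overlapped a region of the other pool. Over the whole lists the corresponding shares were 42.6% (even) and 6.96% (odd). The intervals cover counting error only, and the regions of a gene share their source. The methods describe sonicated lysate that was divided before the probes were added, so both pools may be aliquots of the same cells. Their overlap is therefore not known to be agreement between separate preparations. At a reciprocal overlap of 50%, the 4 loci of Col3a1 were left. Of the 25 odd regions with a score of at least 38, a limit set after the scores were seen, 21 (84.0%) overlapped an even region, and 4 of the 5 collagen regions in this range did. Below 38 the share was 6.04% in the list, and 2 of the 11 collagen regions, exon 2 of Col3a1 and exon 51 of Col1a1, overlapped.

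Every collagen region had its midpoint on an exon. This was so for 16 of 16 odd regions (95% Wilson interval from 80.6% to 100%) and 6 of 6 even regions (from 61.0% to 100%). The background over protein-coding genes was 88.4% of odd and 74.4% of even regions. These shares were not compared by a test, since the regions of a gene share their source. Each region touched exactly 1 exon of its reference transcript. In bases, 3489 of 4064 bp of the odd regions (85.9%) were exonic, although exons made up 8.54% of the span of the 5 genes. For the even regions, 1339 of 1488 bp (90.0%) were exonic, in 3 genes whose spans were 18.5% exon. The remaining bases were intron next to the exon, and no region had its midpoint in an intron. By bases, the median collagen region was 89.8% exonic (odd) and 91.7% (even), against 100% in each list over regions in protein-coding genes.

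In the odd pool, coding sequence held a larger share of the collagen midpoints than of all midpoints in protein-coding genes. The 3′ UTR held a smaller share. Of the 16 odd midpoints, 12 were coding (75.0%, from 50.5% to 89.8%), 2 were in a 3′ UTR (12.5%, from 3.50% to 36.0%) and 2 in a 5′ UTR, against a background of 33.8% coding and 49.4% in a 3′ UTR. The last exon held 5 of the 16 (31.2%, from 14.2% to 55.6%), against 59.6%. The intervals here cover counting error only and take regions as independent, although 8 of the 16 were in Col3a1. No share was tested against its background. Of the 6 even midpoints, 3 were coding, all in Col3a1, and 3 were in the 3′ UTR of the last exon. Each share was 50.0% (from 18.8% to 81.2%), against 28.5% coding, 40.9% in a 3′ UTR and 50.4% in the last exon. Without Col3a1, the share of odd midpoints in the last exon was 50.0%. The median collagen midpoint lay at 70.7% of the spliced length in the odd pool and 78.2% in the even pool. Over protein-coding genes the medians were 65.1% and 67.5%, taken from the 1506 odd and 171 even midpoints on exons of the reference transcript. Counted from the other end, the odd collagen median was 1949 nt from the 3′ end, against 888 nt over the same 1506 midpoints.

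The helix, which takes up the largest part of each transcript, held few of the region bases. Helices were read from the coding sequences as the longest run of triplets that begin with a GGN codon, which gave 337 to 344 triplets in each of the 8 genes and 344 in Col3a1, from codon 164 to codon 1195. Over the 5 genes with an odd region, the helix made up 47.9% of the spliced length and 11.3% of the exonic region bases (393 bp). The coding sequence after the helix, that is the C-telopeptide and C-propeptide, made up 12.6% of the spliced length and 48.0% of the exonic region bases (1676 bp). For the 5′ UTR the shares were 4.58% and 7.80%, for the coding sequence before the helix 11.2% and 10.2%, and for the 3′ UTR 23.6% and 22.7%. In the even pool, the helix made up 54.6% of the spliced length of the 3 genes and held no region base, while the sequence after it took 14.3% and 40.0% and the 3′ UTR 19.4% and 45.1%. Of the odd midpoints, 9 of 16 lay after the helix and 2 within it.

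Helix exons are short and follow the triplet repeat, and most held no region. In Col3a1, 42 of the 43 exons with helix sequence that end before the helix does were multiples of 9 bp long, the length of a triplet, with a median of 54 bp. Exons 20 (108 bp) and 39 (162 bp) were the 2 that held an odd region. The 162-bp helix exon is also present in Col1a1, Col1a2, Col2a1 and Col5a2, where it held no region, and the other members had no odd region on their helix exons. By contrast, all 4 Col3a1 exons with sequence after the helix, exon 48 at the junction included, held an odd region and 3 an even region. Col1a1 and Col1a2 had odd regions on 2 of 4 such exons each, Col5a1 on 2 of 5 and Col5a2 on 1 of 4.

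The exons with a region were also long, and the part of exon length in the position of the regions was not tested. The 16 exons with an odd region were 108 to 2645 bp long with a median of 289 bp, against a median of 54 bp over the 274 exons of the 5 genes. Exon lengths under the regions of the whole list were not taken, so long exons cannot be called particular to these genes. Of these 16 exons, 15 were at least 150 bp long, a limit set after the values were seen, out of 36 exons of that length. In Col3a1, each of the 7 exons of at least 150 bp held an odd region. The exons hit in Col1a1 were the longest of their gene, at places 1 and 2 by length, those of Col1a2 were at places 1, 2 and 4, those of Col5a1 at 1 and 3, and that of Col5a2 at 1. Exons of such length were also present in the genes without a region, where Col2a1 had 7 exons of at least 150 bp and Col5a3 and Col11a1 had 8 each.

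**Figure D4:**
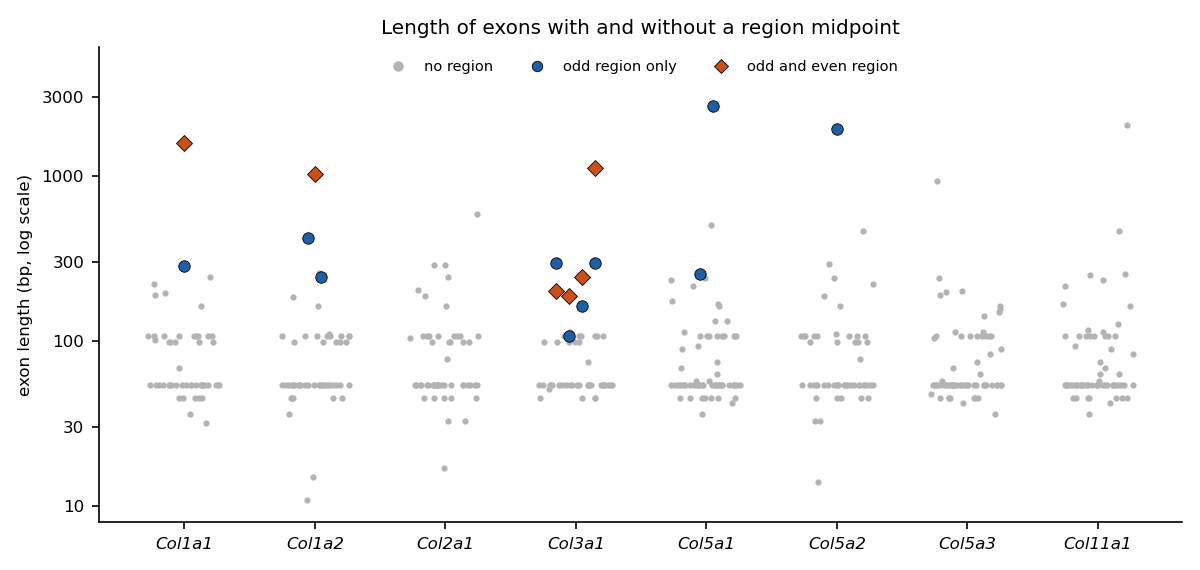
Each point is an exon of the reference transcript, with its length in bp on a log scale, by gene. Grey points hold no region midpoint, blue circles an odd midpoint only, and orange diamonds a midpoint of each pool. Marked exons run from 108 to 2645 bp in 5 genes, and the shortest, exon 20 of Col3a1, is level with the row of grey exons at 108 bp.

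Base composition was close to that of the odd list and lower in GC for the even regions. The median GC content of the 16 odd regions was 49.8%, from 35.4% to 60.6%, against 49.2% over protein-coding genes, and that of the 6 even regions was 41.1%, from 33.1% to 45.2%, against 48.4%. The helix-end regions of Col1a1 and Col5a1 were GC-rich (60.6% and 58.3%), and that of Col3a1 was intermediate (51.6%). The longest exact match of any ChIRP probe, on either strand, was 7 to 10 bases in the odd collagen regions and 7 to 8 in the even ones, where the list medians were 7 and 8 and the longest match in each list was 13. The match of 10 bases was between probe 3 and exon 62 of Col5a1, a region with a score of 5. The probe is shown 5′ to 3′ with the matching bases in capitals, since it is the closest that a probe of PAM came to a collagen region.
Probe 3: accTGCCATCTGCtatcaaa
In Col3a1 exon 48, with a score of 53, the longest match was 7 bases. Which probes belonged to the odd and the even pool was not given in the sources used here, so all 6 were searched against both lists.

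Other genes of collagen synthesis and assembly were taken as lists by role, 88 genes of which 87 were found in the annotation. Of these, 25 had an odd region, 10 an even region and 8 both. Over all protein-coding genes these shares were 6.46%, 0.996% and 0.697%, and the counts by role below were not tested against them. None of the other fibrillar collagens, Col11a2, Col24a1 and Col27a1, had a region. Among 32 further collagens, 6 had an odd region and 2 an even region, with both pools in Col4a2, a basement membrane chain, at scores of 9 (odd) and 4 (even). Col12a1, a fibril-associated collagen, had an even region only, with a score of 4.

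Genes that act on procollagen inside the cell had an odd region in 6 of 16 cases and an even region in 2. Serpinh1, the collagen chaperone Hsp47, had odd scores of 17 and 18 and even scores of 5 and 7, and both pairs overlapped. P4hb, the beta subunit of prolyl 4-hydroxylase, had an odd region only, with a score of 18, and P4ha1, the alpha subunit that carries the active site, had even regions only, both with a score of 4. Of 8 genes of propeptide cleavage, 2 had an odd region. Pcolce, the enhancer of C-propeptide cleavage, had odd scores of 8, 13 and 8 and an even score of 5, with 1 overlap. Of 5 crosslinking enzymes, 3 had an odd region and none an even region, with scores of 9, 11 and 12 in Lox, which oxidizes lysines for fibril crosslinks.

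Proteins that bind fibrils made up the list with the most regions, with odd regions in 5 of 10 genes and even regions in 4. Fn1 (fibronectin, on which collagen fibrils assemble) had 26 odd regions with scores from 7 to 81 and 10 even regions with scores from 5 to 25, of which 8 overlapped. Sparc, a collagen-binding matricellular protein, had odd scores of 72, 9 and 8 and an even score of 22, with no overlap between pools. Bgn (biglycan) had odd scores of 5 and 41 and even scores of 15 and 9, also with no overlap, and Thbs1 (thrombospondin 1) had odd scores of 8, 29 and 23 and even scores of 4 and 9, with 1 overlap. Dcn (decorin), which coats type I fibrils, had odd regions only, with scores of 9, 4, 5 and 12. Of 8 collagen receptors, the shared integrin chain Itgb1 alone had a region, with odd scores from 5 to 20 over 6 regions and an even score of 5. Of 5 collagenases and related proteases, 2 had an odd region, with a score of 12 in Mmp14, and none had an even region. Of the fibrillar collagens and their pathway, Fn1 and Sparc were thus the genes whose highest odd score exceeded the 53 of Col3a1.

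**Figure D5:**
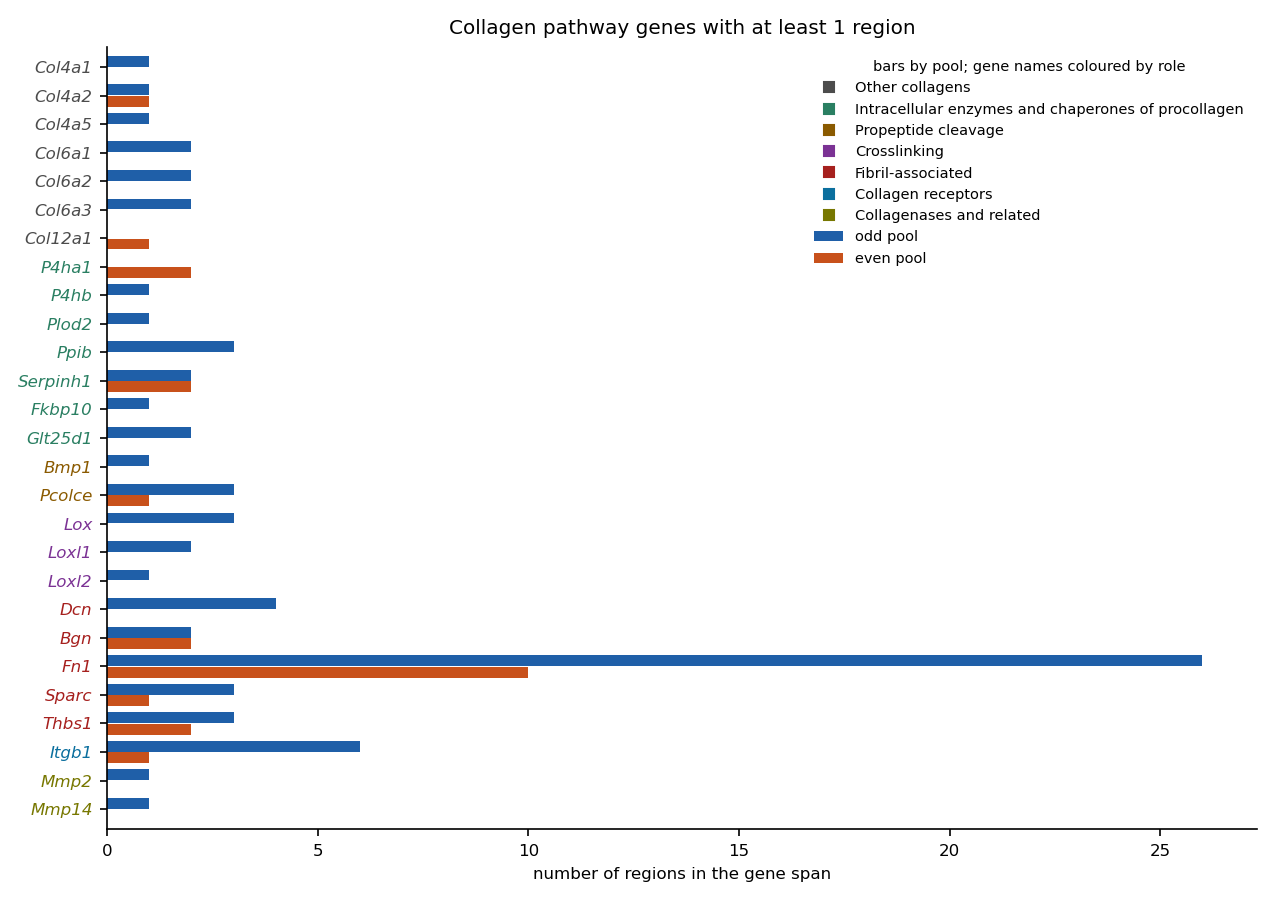
Bars give the number of odd (blue) and even (orange) regions in each gene of the pathway lists with at least 1 region, with gene names colored by role. Fn1 has 26 odd and 10 even regions, and no other gene has more than 6 odd or 2 even regions.

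Regions are no measure of expression, and the purity of the ASCs cannot be read from them. Of 8 markers of satellite cells and myoblasts, 3 had an odd region (Des, Vcam1 and Itga7) and 2 an even region (Des and Itga7). Pax7, Myf5, Myod1, Cdh15 and Megf10 had no region of either pool. Of 8 markers of fibroblasts and fibro-adipogenic progenitors, which also make fibrillar collagens, 3 had an odd region (Ly6a, Dcn and Col6a1) and 1 an even region (Ly6a). None of 4 endothelial, 4 immune and 3 Schwann cell markers had a region. Over all protein-coding genes, 6.46% had an odd region and 0.996% an even region, and the marker counts were not tested against these shares. The part of other cell types in the collagen regions was not tested.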

How the data were processed

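Each probe pool, odd and even, gave 1 ChIRP-seq library of PAM from cultured ASCs. According to the methods and labels, the authors aligned reads uniquely to mm9 by Bowtie2 and ran MACS2 for peak calling (versions not given in the sources used here). For each pool they deposited regions of fixed width, each with a score, a whole number whose unit is not stated. Depth is therefore unknown.

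Coordinates are given 1-based. Regions were joined to GENCODE M1 gene spans by at least 1 bp. The reference transcript was the protein-coding transcript with the longest coding sequence. Exon class was read at the region midpoint and per base. 31-mers were counted in mm9, and the exact matches of 6 probes were searched on both strands. Wilson intervals (95%) cover counting error only. No test was run, since no pool had replicates. The join was tested on simulated data. The members, pathway lists and marker lists were chosen with earlier results of these data known. Named in the text are all 8 genes, pathway genes with a region in both pools, and, over all pathway lists together, up to 3 genes found only in the odd pool and up to 3 only in the even pool, by highest score with ties included. Other genes, such as Gm20388 and Gm17329, were named after their values were seen. Alternatives changed the overlap, gene span, score limit, exon rule and members. Python 3.11.15, NumPy 2.4.6, SciPy 1.17.1, numba 0.67.0 and matplotlib 3.10.9 were used.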

Additional observations from a re-analysis of the deposited data

How the results depend on the processing

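Of 65 alternative values, 62 stayed within 1.5 times the value reported (counts and medians) or within its 95% Wilson interval (shares), and 3 did not. Some of the 62 could not differ. With every midpoint on an exon, that share was 100% in any subset of the regions, and no region failed the 31-mer limit. Others lay at the limit of 1.5 itself, such as 4 even regions above the list median in place of 6. Among the 62 is the share of odd midpoints in the last exon without Col3a1, which was 50.0% in place of 31.2%. With regions extended by 1000 bp on each side, 16 pairs of an odd and an even region met in the collagen genes in place of 6 shared loci, which follows from neighboring exons lying closer together than the extended regions are wide. Without Col3a1, the median odd score was 7.5 in place of 12, and 100% of the even midpoints were in the last exon in place of 50.0%, since 1 region each of Col1a1 and Col1a2 was then left. Regions with a score above the median of their list numbered 14 odd and 4 even, in 5 and 2 genes. Midpoints in place of any overlap, spans extended by 1000 bp, 31-mers that occur once and a 1-based reading of the start each left 16 odd and 6 even regions. No paired analysis was possible because there was 1 library of each pool. The lists hold called regions without read counts, so a gene without a region cannot be told from a gene below the calling limit.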
